A study of Mus musculus with 6 samples.

Results

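H/ACA box snoRNAs are the small nucleolar RNAs that, with the proteins dyskerin (Dkc1), Nop10, Nhp2 and Gar1, form the particles that turn chosen uridines of ribosomal RNA into pseudouridine. The RNA part folds into hairpins joined by a hinge that holds the H box (ANANNA), and carries the trinucleotide ACA close to its 3′ end, while a loop inside a hairpin pairs with the target RNA. In mammals most of them are cut out of introns of host genes, many of which encode ribosomal proteins or translation factors. The members described here were all genes of the separate expression tables whose name was Snora followed by a digit, which gave 40 of 46072 genes under 39 names. The name Snora26 was given to a pair of genes, of which the longer, of 2347 nt, was annotated as the lncRNA Dancr, which contains the snoRNA. The 39 remaining genes were annotated as snoRNAs and are the family of all counts below.

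The libraries came from RNA immunoprecipitation sequencing (RIP-seq) of left ventricles, in which an antibody pulls its target protein down together with bound RNA. EZH2 is the methyltransferase of Polycomb repressive complex 2 (PRC2), and normal IgG served as the background antibody. Male C57BL/6 mice aged 10 weeks were divided into Sham (saline by protocol, "Untreated" by label), AngII 4 h and AngII 24 h, the latter groups receiving Angiotensin II, a peptide that raises blood pressure and drives cardiac hypertrophy, at 1 mg/kg/min from an osmotic minipump. The strain labels of the anti-EZH2 libraries of AngII 4 h and AngII 24 h read C57BL/7 and C57BL/8. Each heart group comprised 2 mice, and 2 RIP products were mixed before library preparation, so that each of the 6 combinations of heart group and antibody was 1 library. There were no replicates, and no difference below has a replicate check or a p-value.

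Values were FPKM, that is, sequenced fragments divided by the length of the gene and by the size of the library. Whole reads could be recovered from them for the snoRNAs, which have 1 exon, and 170 of the 194 member values of at least 0.5 reads (87.6%) were within 0.1 of a whole number. Among other short genes with at most 15 reads the share was 45.9% to 55.5% depending on the library, so that their reads were less sharply recovered. The libraries held the equivalent of 3868165 to 8097271 fragments. A single read of a 130-nt snoRNA was worth 36.3 FPKM in the Sham IgG library, whereas for a 205-nt snoRNA it was worth 7.25 FPKM, under the fragment lengths assumed in the recovery. All intervals below are exact 95% Clopper-Pearson intervals of these reads. They cover counting error only and compare libraries, not conditions. The 6 ventricular cardiomyocyte markers (Myh6, Myl2, Tnnt2, Tnni3, Actc1 and Myl3) lay between 379.4 and 3934 FPKM. Fibroblast (0.773 to 30.2), endothelial (1.66 to 10.9) and macrophage (0 to 2.58) markers lay below this range, and the erythroid markers (136.4 to 485.6) overlapped it. The adipocyte markers were at or near 0 (at most 0.521 FPKM) and the atrial gene Sln was at 0 in every library, while Myl7, another atrial gene, was at 14.3 and 12.2 FPKM in the Sham IgG and anti-EZH2 libraries and at most 0.491 FPKM in the other 4, and Myl4 at 9.50 and 6.57 FPKM against at most 0.562. Nppa, the gene of atrial natriuretic peptide, was between 5.14 and 20.2 FPKM. The part of these atrial transcripts in the snoRNA values was not tested. Ezh2 transcripts were low in every library (0.266 to 2.06 FPKM). Ratios were below 1 in most protein-coding genes: over the 4027 above 1 FPKM in all libraries the median anti-EZH2/IgG ratio was 0.797 (Sham), 0.907 (AngII 4 h) and 0.674 (AngII 24 h).

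The sequences of the members on which the results turn are given here from GENCODE M21 (GRCm38), with the ACA box in capitals. Snora73a and Snora73b, which held most reads, lie next to each other on the minus strand of chromosome 4 (132352775 to 132352979 and 132352322 to 132352526), and 198 of their 205 letters (96.6%) were identical.
Snora73a: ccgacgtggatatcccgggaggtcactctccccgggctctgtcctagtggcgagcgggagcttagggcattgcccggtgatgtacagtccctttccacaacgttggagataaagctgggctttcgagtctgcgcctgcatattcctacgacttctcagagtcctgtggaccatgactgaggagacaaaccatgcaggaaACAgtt
Snora73b: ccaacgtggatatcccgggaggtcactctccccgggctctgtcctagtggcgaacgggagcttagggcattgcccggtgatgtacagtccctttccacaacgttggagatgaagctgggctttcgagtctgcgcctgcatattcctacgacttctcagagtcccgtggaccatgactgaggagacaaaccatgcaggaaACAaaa
The 5 members that the study named were chosen by its authors from these libraries, so that their ratios are described and not tested. They were Snora68 and the 4 shown here, Snora7a (chromosome 6, 115807975 to 115808114, minus strand), Snora31 (chromosome 14, 75847905 to 75848034, plus), Snora33 (chromosome 10, 23785347 to 23785475, minus) and Snora47 (chromosome 13, 95330600 to 95330737, plus).
Snora7a: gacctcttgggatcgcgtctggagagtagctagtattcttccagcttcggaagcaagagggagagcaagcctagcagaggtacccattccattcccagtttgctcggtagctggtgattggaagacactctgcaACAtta
Snora31: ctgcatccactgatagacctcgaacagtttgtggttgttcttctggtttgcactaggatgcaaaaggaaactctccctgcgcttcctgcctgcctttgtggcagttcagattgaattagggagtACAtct
Snora33: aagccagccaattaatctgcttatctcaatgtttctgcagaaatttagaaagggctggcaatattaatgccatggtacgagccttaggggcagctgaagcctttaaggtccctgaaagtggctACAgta
Snora47: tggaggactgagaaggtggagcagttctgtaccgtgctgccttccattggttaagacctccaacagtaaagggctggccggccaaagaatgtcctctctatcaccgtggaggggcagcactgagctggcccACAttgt
Snora28 (chromosome 12, 111540941 to 111541067, plus) had an interval above 1 in both Sham and AngII 4 h, Snora34 (chromosome 15, 98519716 to 98519853, minus) had the highest ratio at AngII 24 h, and Snora57 (chromosome 19, 8888538 to 8888685, minus) and Snora78 (chromosome 17, 24719676 to 24719803, minus) the lowest.
Snora28: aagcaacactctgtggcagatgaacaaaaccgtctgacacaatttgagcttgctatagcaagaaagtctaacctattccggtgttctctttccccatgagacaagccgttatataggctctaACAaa
Snora34: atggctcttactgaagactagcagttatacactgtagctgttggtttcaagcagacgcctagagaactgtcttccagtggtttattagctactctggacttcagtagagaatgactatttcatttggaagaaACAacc
Snora57: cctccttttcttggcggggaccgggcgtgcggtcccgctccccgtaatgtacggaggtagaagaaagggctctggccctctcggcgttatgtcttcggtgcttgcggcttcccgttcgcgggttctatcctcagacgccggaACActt
Snora78: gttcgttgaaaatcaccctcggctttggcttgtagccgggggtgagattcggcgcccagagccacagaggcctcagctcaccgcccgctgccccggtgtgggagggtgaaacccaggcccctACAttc

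The family shared the sequence features of its class. ACA stood exactly 3 letters before the 3′ end in 32 of 39 members (82.1%) and in 0 of 82 C/D box snoRNAs, the sister class that guides ribose methylation. Within the last 15 letters it was found in 37 members and in 12 C/D box snoRNAs (14.6%), and Snora81 and Snora44 were the exceptions. An H box in the middle part was found in 37 members (94.9%) against 6.10% of C/D box snoRNAs, searched on the RNA strand only. The search left out both ends, so that many C/D box snoRNAs (median length 79.5 nt) had no part to search. The H box shares of the families are therefore not comparable. CTGA, the D box, stood in the last 15 letters of 92.7% of C/D box snoRNAs and of 5.13% of members. RNAfold predicted 2 hairpin loops for 30 members (76.9%) and 3 or more for the other 9, against 2 loops for 37.8% of C/D box snoRNAs. Members measured 121 to 205 nt, with a median of 132 nt. Between members the closest pair after Snora73a and Snora73b was Snora34 and Snora2b, at 68.0% identity, although 20 of the 39 had a copy of at least 90% identity over 80% of their length in another annotated transcript, so that their reads could be divided between places.

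Snora73a and Snora73b, which correspond to the U17 snoRNA that acts in cleavage of the 18S precursor, dominated the family. They held between 55.3% and 77.8% of its reads in each library. Snora73b was at 3812, 4295 and 5858 FPKM with IgG (Sham, then AngII 4 h, then AngII 24 h) and at 2481, 3412 and 1863 FPKM with anti-EZH2. Snora73a followed at 2833, 3047 and 3907 FPKM with IgG and at 1959, 2238 and 1482 FPKM with anti-EZH2. Each heart group thus had less of both in its anti-EZH2 library than in its IgG library. Next by mean FPKM came Snora81 (hosted by Eif4a2, an RNA helicase of translation initiation), Snora78 (hosted by Snhg9) and Snora23 (hosted by Ipo7, a nuclear import receptor), with means of 962.2, 825.9 and 532.7 FPKM. In reads, Snora73b and Snora73a were the 2 members with at least 50 in every library, and 5 had at least 10 in every library.

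The remaining members were thinly covered. Altogether 25 members were above 0 in all 6 libraries, 6 in 5 libraries, and 8 in 4 libraries or fewer, and 17 had under 10 reads in every library. Between 4 (Sham IgG) and 9 (AngII 24 h IgG) members were at 0 in a library, where a member counted as 0 when its FPKM was worth under 0.5 reads. Snora35, which lies in an intron of the serotonin receptor gene Htr2c, was at 0 in all 6 libraries, as was Htr2c. A count of 0 allows up to 3 reads, which for Snora35 is between 62.5 and 129.7 FPKM depending on the library. Snora36b was seen with 1 read (AngII 24 h anti-EZH2), and Snora19 with 0.5 reads in Sham anti-EZH2 and 1 read at AngII 24 h anti-EZH2.

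**Figure D1:**
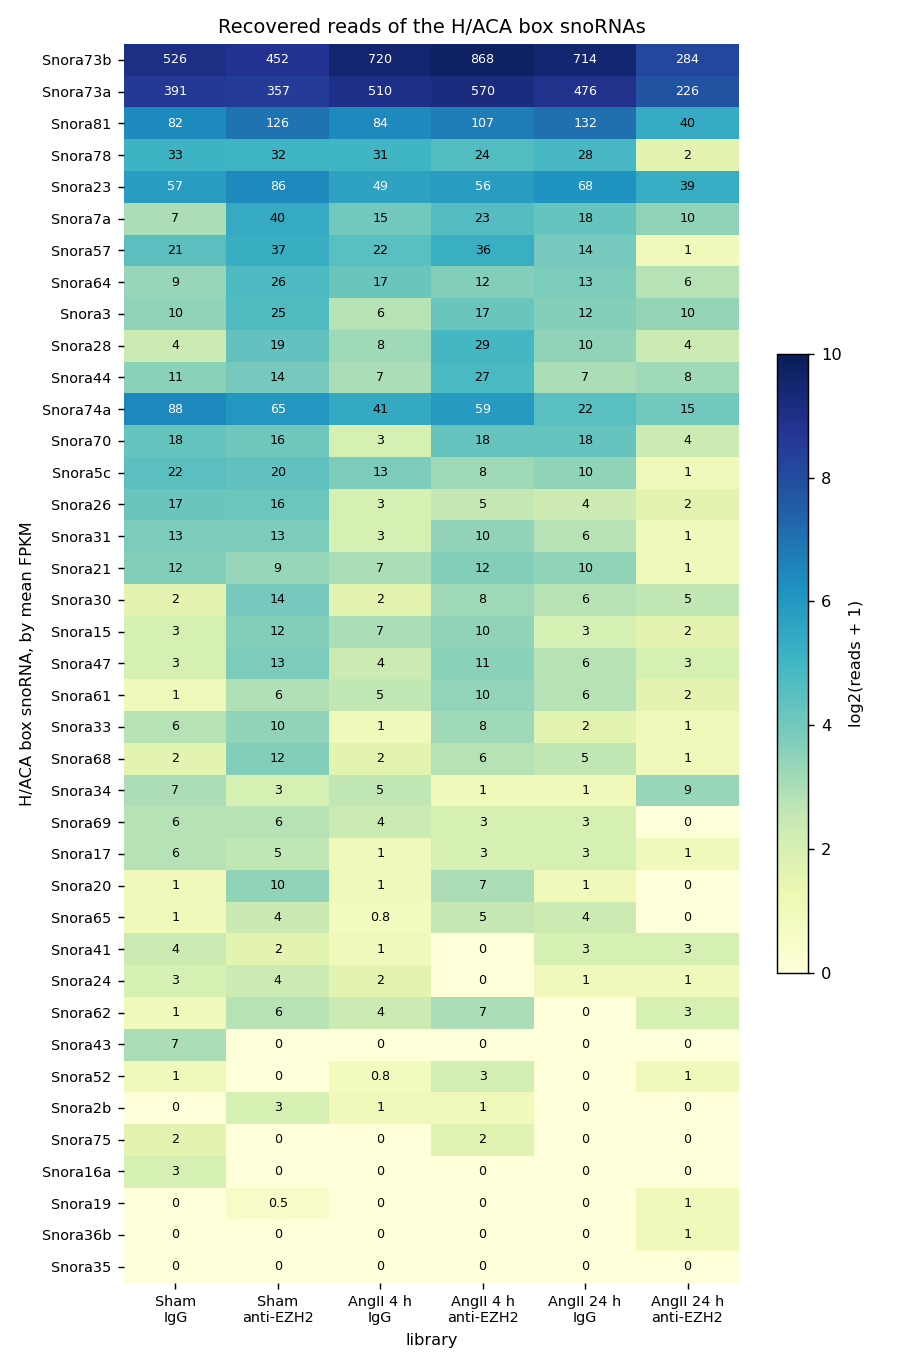
Recovered reads of the 39 H/ACA box snoRNAs (rows, ordered by mean FPKM) in the 6 libraries (columns), with the number printed in each cell and the colour giving log2(reads + 1). Snora73b and Snora73a hold between 226 and 868.5 reads in every library, and 17 members stay under 10 reads in every library.

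As a sum, the family was less abundant in the anti-EZH2 library than in the IgG library of each heart group, and most so at AngII 24 h. It took 314.1, 296.5 and 415.5 RPM (reads scaled to the fragments of the library) with IgG in Sham, AngII 4 h and AngII 24 h hearts, and 253.3, 242.8 and 141.9 with anti-EZH2. Pooled over members, the anti-EZH2/IgG ratio of RPM was 0.806 (interval 0.749 to 0.869) in Sham, from 1464 and 1379 reads. It was 0.819 (0.766 to 0.875) at AngII 4 h, while AngII 24 h stood at 0.342 (0.312 to 0.374). The median ratios of protein-coding genes in these heart groups were 0.797, 0.907 and 0.674, so that in Sham the family was near the typical gene. Without Snora73a and Snora73b the pooled ratio was 1.08 (0.955 to 1.22) in Sham and 0.991 (0.864 to 1.14) at AngII 4 h, while AngII 24 h gave 0.342 (0.285 to 0.408). The intervals of Sham and AngII 4 h thus included 1 without this pair, and that of AngII 24 h lay below 1 with or without it. For levels between heart groups with the same antibody, fewer cells that hold these RNAs and less of them per cell cannot be told apart. In FPKM, which gives the shorter members more weight, the ratio of the sums was 0.950, 0.912 and 0.341. Relative to the protein-coding medians it was 1.19, 1.005 and 0.506.

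**Figure D2:**
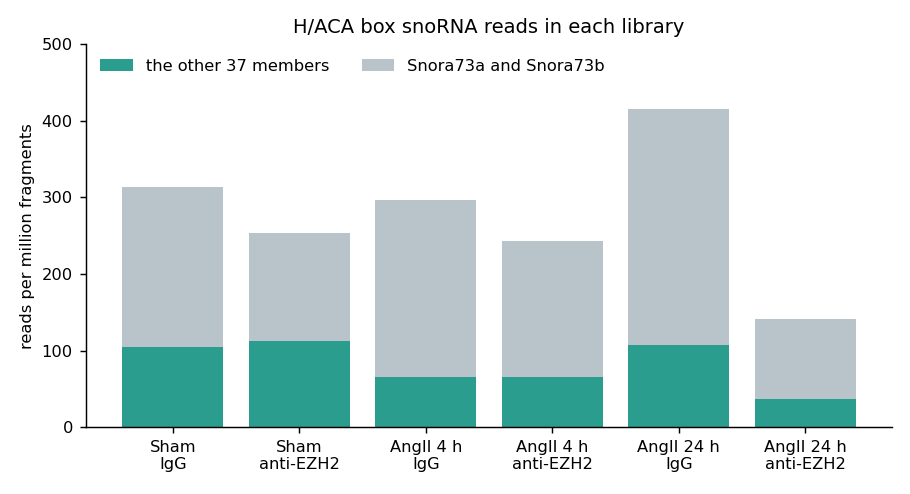
RPM of the H/ACA box snoRNAs in each library (bars from 0), split into Snora73a with Snora73b (grey) and the other 37 members (green). The AngII 24 h anti-EZH2 library is the lowest at 141.9, and the AngII 24 h IgG library the highest at 415.5.

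Member by member, Sham and AngII 4 h showed ratios spread around a median just above 1, and AngII 24 h ratios mostly below 0.5. In Sham 31 members had a value in both libraries, with a median ratio of 1.14 (quartiles 0.688 and 3.17, range 0.323 to 7.53), 17 being above 1 and 14 below. Another 2 were seen with anti-EZH2 alone, 4 with IgG alone and 2 in neither library. The median over 31 members at AngII 4 h was 1.13 (quartiles 0.773 and 2.29, range 0.132 to 5.27), with 19 above 1 and 12 below, while 1 member was seen with anti-EZH2 alone, 2 with IgG alone and 5 in neither. The value for AngII 24 h was 0.379 over 27 members (quartiles 0.212 and 0.541, range 0.0573 to 7.23), and 26 of the 27 were below 1. There, 4 members were seen with anti-EZH2 alone, 3 with IgG alone and 5 in neither. Relative to the protein-coding median of the same heart group, these values became 1.43, 1.24 and 0.563.

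Against all genes, members with high ratios were more frequent in Sham and AngII 4 h, and members with low ratios at AngII 24 h. With more than 1.0 FPKM in the higher library, 11 of 31 members (35.5%) had a ratio above 2 in Sham, where 14.3% of all 8751 genes did, and 2 members (6.45%) one below 0.5, against 22.6% of all genes. In AngII 4 h hearts 9 members (29.0%) were above 2 against 12.8% of all 9175 genes, and 4 (12.9%) below 0.5 against 14.3%. In AngII 24 h hearts only Snora34 (3.70%) was above 2, against 9.33% of all 8789 genes, and 19 of 27 (70.4%) were below 0.5, against 35.7%. Comparison with other short genes, which also have few reads, narrowed most of these gaps. The short genes were those of 1 exon and 60 to 400 nt not named Snora or Snord followed by a digit. In the 3 heart groups 17.0%, 13.6% and 3.48% of them were above 2, and 10.1%, 7.62% and 55.9% below 0.5. Their median ratios were 1.07, 1.15 and 0.438. The set still held some snoRNAs under other names, as SNORA50, U3 and snopsi28S-3327. The 82 C/D box snoRNAs, of which 18, 23 and 19 had a ratio, were close to the H/ACA family. Their medians were 1.29, 1.36 and 0.291, with 33.3%, 34.8% and 5.26% above 2 and 5.56%, 4.35% and 63.2% below 0.5. Low ratios at AngII 24 h were thus seen in C/D box snoRNAs and other short genes as well as in H/ACA box snoRNAs. Whether they differed between these families was not tested.

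**Figure D3:**
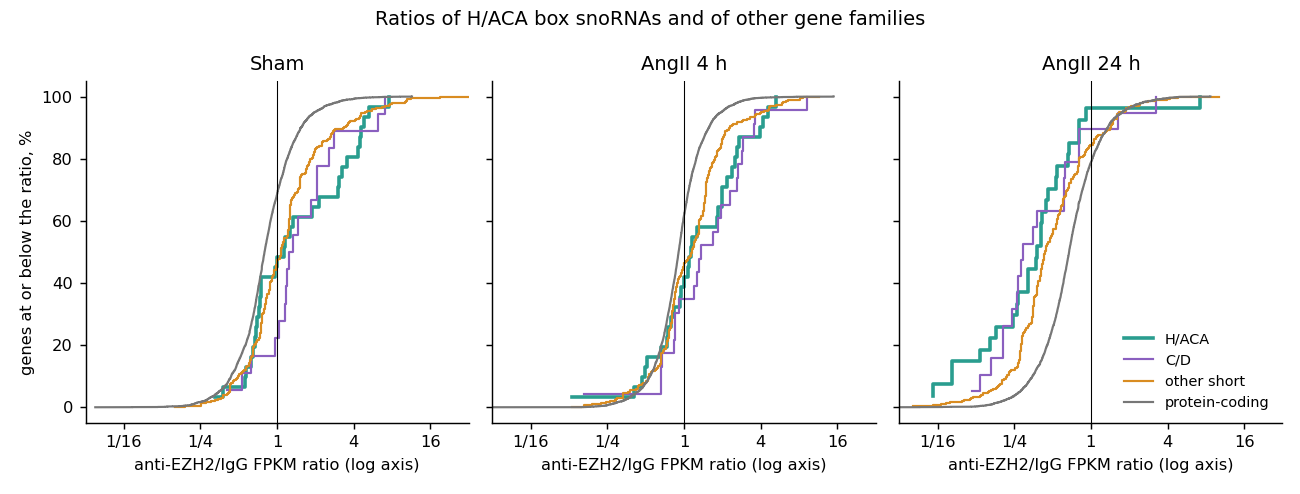
Cumulative share of genes (percent) at or below each anti-EZH2/IgG FPKM ratio (log axis) in the 3 heart groups, for H/ACA box snoRNAs, C/D box snoRNAs, other genes of 1 exon and 60 to 400 nt, and protein-coding genes above 1 FPKM in all libraries. At AngII 24 h the H/ACA curve (median 0.379) lies left of protein-coding genes (0.674) and near C/D box snoRNAs (0.291).

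Without scaling, the position of AngII 24 h was nearly uniform. Among the 25 members with a ratio in all heart groups, AngII 24 h was the lowest of the 3 in 24 (96%), the exception being Snora34. Relative to the protein-coding median of each heart group, further members were exceptions. Snora74a was then at 0.810 against 0.702 in Sham, and Snora44 at 1.37 against 1.22 in Sham. Snora64 was at 0.551 against 0.512 at AngII 4 h. The counts that follow are unscaled. The order of the others was divided, AngII 4 h being below Sham in 15 of the 25. A lowest ratio at AngII 24 h was also found in 93.3% of 15 C/D box snoRNAs, 82.1% of 302 other short genes and 52.5% of protein-coding genes. A ratio above 1 in Sham and at AngII 4 h and below 1 at AngII 24 h was found in 9 members (36%), against 46.7% of C/D box snoRNAs, 34.4% of other short genes and 9.01% of protein-coding genes. The AngII 24 h libraries entered every such comparison, and a property of these libraries cannot be told apart from AngII 24 h.

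For few members did the reads place the ratio on either side of 1. In Sham the interval lay above 1 for 5 of 31 members (16.1%), namely Snora7a, Snora20, Snora28, Snora30 and Snora68, against 21.1% of 437 genes of 60 to 400 nt with reads in both libraries. It lay below 1 for Snora73a, Snora73b and Snora74a (9.68%, against 9.61%). In the AngII 4 h libraries it lay above 1 for Snora28, Snora44 and Snora70 (9.68%, against 16.9% of 474 genes) and below 1 for Snora73a, Snora73b and Snora78 (9.68%, against 13.1%). In the AngII 24 h libraries it lay above 1 for 0 members (1.28% of 391 genes) and below 1 for 9 of 27 (33.3%), against 42.7%. The 9 were Snora21, Snora23, Snora57, Snora5c, Snora70, Snora73a, Snora73b, Snora78 and Snora81. By this count the family was at or under the share of short genes in general. The exception was the intervals below 1 in Sham, where the shares were alike. The short genes counted here included the members, and they were not matched in reads, on which the width of an interval depends.

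The members with the most reads after Snora73a and Snora73b were Snora81, Snora23 and Snora74a. Snora81 and Snora23 had their lowest ratio at AngII 24 h. Snora74a was nearly level there with Sham (0.546 and 0.559), and above Sham when scaled by protein-coding genes (0.810 and 0.702). At AngII 4 h the ratio was below that of Sham in Snora81 and Snora23 and above it in Snora74a. Snora81 was at 964.5, 813.3 and 1761 FPKM with IgG and at 1122, 681.3 and 431.2 FPKM with anti-EZH2 in the 3 heart groups. Its ratio was 1.16 (0.877 to 1.56) in Sham, 0.838 (0.624 to 1.13) at AngII 4 h, and then 0.245 (0.165 to 0.347), and the last interval did not overlap the earlier ones. Snora23 had 57, 49 and 68 reads with IgG and 86, 56 and 39 with anti-EZH2, giving ratios of 1.14 (0.811 to 1.63), 0.752 (0.504 to 1.13) and 0.459 (0.300 to 0.688), the last being 0.692 with the table of the whole series. Snora74a, related to the U19 snoRNA, had 88, 41 and 22 reads with IgG and 65, 59 and 15 with anti-EZH2, and its FPKM was highest in Sham with either antibody (742.2 and 415.1). Its ratios were 0.559 (0.401 to 0.782), 0.947 (0.625 to 1.45) and 0.546 (0.262 to 1.10), and all of its intervals overlapped.

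**Figure D4:**
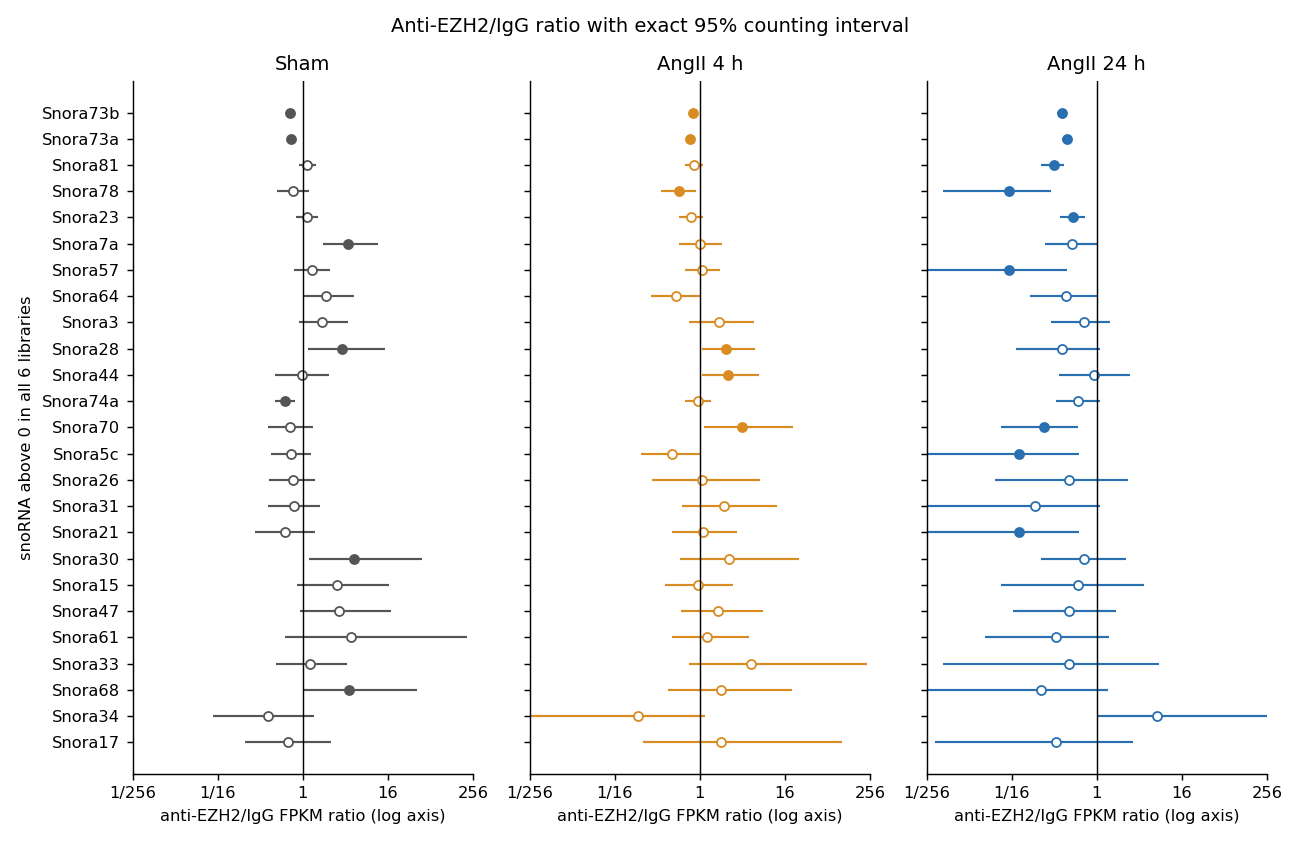
Anti-EZH2/IgG FPKM ratio (points, log axis) with exact 95% counting interval (lines, cut at the ends of the axis) of the 25 members above 0 in all 6 libraries, for each heart group. Filled points mark intervals that leave out 1, and at AngII 24 h all filled points are below 1.

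Among the 5 members named in the study, Snora7a, in the gene of ribosomal protein Rpl32, had the most reads. It was at 194.0 FPKM (7 reads) with IgG and 836.0 FPKM (40 reads) with anti-EZH2 in Sham, a ratio of 4.31 (1.92 to 11.5). The AngII 4 h libraries were nearly level, at 342.4 and 345.6 FPKM (ratio 1.01, 0.504 to 2.08), and at AngII 24 h they stood at 562.1 and 250.9 FPKM (0.446, 0.183 to 1.01). Its IgG level was thus highest where its anti-EZH2 level was lowest. Snora68 had 2 IgG and 12 anti-EZH2 reads in Sham (70.6 and 319.1 FPKM, ratio 4.52, 1.01 to 41.9). At AngII 4 h it had 2 and 6 reads (1.97, 0.353 to 20.01) and at AngII 24 h 5 and 1 (0.161, 0.00337 to 1.43). Snora47, in an intron of the zinc finger gene Zbed3, had 3 and 13 reads in Sham (87.6 and 286.2 FPKM, ratio 3.27, 0.905 to 18.01), 4 and 11 at AngII 4 h (1.81, 0.536 to 7.80) and 6 and 3 at AngII 24 h (0.402, 0.0645 to 1.87).

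Snora33, in the gene of ribosomal protein Rps12, had its highest ratio at AngII 4 h. There it was at 30.8 FPKM with IgG and 162.0 FPKM with anti-EZH2, a ratio of 5.27 that came from 1 and 8 reads (interval 0.706 to 234). In Sham it had 6 and 10 reads (224.1 and 281.2 FPKM, ratio 1.25, 0.417 to 4.24) and at AngII 24 h 2 and 1 (0.402, 0.00676 to 7.66), so that all its intervals included 1. The paper has other evidence on Snora33, a computed interaction strength and a pull-down of EZH2 with tagged Snora33. These reads do not bear on that evidence. Snora31, in an intron of Tpt1 (the gene of the translationally controlled tumour protein), was at 472.0 and 355.5 FPKM in Sham (13 reads in each library, ratio 0.753, 0.324 to 1.78). It was at 89.7 and 196.9 FPKM at AngII 4 h (3 and 10 reads, 2.19, 0.565 to 12.4) and at 245.1 and 32.9 FPKM at AngII 24 h (6 and 1 reads, 0.134, 0.00289 to 1.10). Of the 15 ratios of these members, those of Snora7a and Snora68 in Sham alone had an interval that left out 1. With the table of the whole series the AngII 24 h ratios were 0.695 for Snora7a, 0.260 for Snora68 and 0.666 for Snora33. Snora47 was at 0.547, these all being nearer to 1, while Snora31 was at 0.131 beside 0.134.

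The 3 highest ratios in Sham were those of Snora20, Snora30 and Snora61. Snora20, in an intron of the chaperonin gene Tcp1, rested on 1 IgG and 10 anti-EZH2 reads (38.4 and 289.3 FPKM, ratio 7.53, 1.08 to 329.7). Snora30, in an intron of the remodeller gene Srcap, had 2 and 14 reads (5.27, 1.22 to 48.2), and Snora61 had 1 and 6.41 (4.83, 0.553 to 209.7). Snora28, in the gene of the initiation factor Eif5, was at 158.2 and 565.7 FPKM in Sham (4 and 19 reads, 3.58, 1.199 to 14.6) and at 260.7 and 622.0 FPKM at AngII 4 h (8 and 29 reads, 2.39, 1.06 to 6.04). With the table of the whole series its ratio in Sham was 1.997. At AngII 24 h its libraries stood the other way, at 444.8 and 143.2 FPKM (10 and 4 reads, 0.322, 0.0730 to 1.11). Among AngII 4 h ratios, Snora20 (1 and 7 reads, 4.61, 0.592 to 207.7) and Snora65 (0.77 and 4.88 reads, 4.16, 0.368 to 155.7) followed Snora33. The lowest ratios at AngII 4 h were those of Snora34 (0.132), Snora5c (0.405) and Snora64 (0.465), whose intervals all reached past 1.

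At AngII 24 h the lowest ratios came from members with at least 10 reads with IgG. A very low ratio takes many IgG reads beside at least 1 anti-EZH2 read, and members seen with IgG alone had no ratio. Snora57, which has no host annotated on its strand, was at 476.0, 410.8 and 357.9 FPKM with IgG in Sham, AngII 4 h and AngII 24 h hearts, and at 633.1, 442.5 and 20.5 FPKM with anti-EZH2. The last value was 1 read, beside 14 IgG reads (ratio 0.0573, 0.00135 to 0.374). Snora78 was at 1268, 981.4 and 1210 FPKM with IgG and at 925.8, 500.1 and 69.6 FPKM with anti-EZH2, the last value being 2 reads beside 28 (0.0575, 0.00658 to 0.226). Both were level over the IgG libraries within 1.5-fold and lowest in the AngII 24 h anti-EZH2 library. Snora21 (in Rpl23) and Snora5c (in Tbrg4) each had 10 IgG reads and 1 anti-EZH2 read at AngII 24 h (both 0.0804, 0.00184 to 0.561). Snora34 ran against the family: it had 7 and 3 reads in Sham (0.323, 0.0543 to 1.43), 5 and 1 at AngII 4 h (0.132, 0.00278 to 1.18) and 1 and 9 at AngII 24 h (7.23, 0.994 to 315), with each interval including 1. In the table of the whole series the AngII 24 h ratios of Snora78, Snora21, Snora28 and Snora34 were 0.0896, 0.134, 0.499 and 11.25.

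Where the AngII 24 h ratios came from was visible in each antibody separately. With IgG the median AngII 24 h/Sham ratio over 30 members was 1.13, with 7 members more than 2-fold higher and 5 more than 2-fold lower, shares read against 22.9% and 12.8% of all 9118 genes. With anti-EZH2 it was 0.300 over 29 members, with 2 more than 2-fold higher and 21 more than 2-fold lower, where 15.8% and 23.4% of all 8303 genes were. For the median member the anti-EZH2 value was thus lower than in Sham and the IgG value near it, but several abundant members were higher with IgG. Snora73b was 1.54-fold of Sham with IgG and 0.751-fold with anti-EZH2 at AngII 24 h, and Snora73a 1.38-fold and 0.757-fold. For AngII 4 h the median against Sham was 0.680 with IgG (32 members, 2 higher and 10 lower by more than 2-fold, against 19.6% and 14.5% of 9014 genes) and 0.565 with anti-EZH2 (30 members, 0 higher and 12 lower, against 23.3% and 12.9% of 9020 genes). These comparisons share the Sham libraries. C/D box snoRNAs had medians of 1.14 with IgG and 0.371 with anti-EZH2 at AngII 24 h against Sham.

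By host, 36 of the 39 members lay on the strand of 1 of 32 annotated genes, 21 overlapping an exon of a transcript of that gene and 15 only introns. The hosts were ribosomal protein genes for 11 members, translation factor genes for 4, other protein-coding genes for 12 and non-coding genes for 9. The 11 members in ribosomal protein genes had median ratios of 2.02, 1.87 and 0.371 in Sham, AngII 4 h and AngII 24 h (10, 11 and 7 with a ratio). For the 9 in non-coding genes the medians were 0.725, 0.947 and 0.395 (8, 7 and 8 with a ratio), for the 12 in other protein-coding genes 2.08, 0.935 and 0.459 and for the 4 in translation factor genes 1.16, 1.61 and 0.322. Each of these classes thus had its lowest median at AngII 24 h. In Sham none of the 10 ratios in ribosomal protein genes was below 0.5 and 5 (50%) were above 2. In other protein-coding genes 4 of 8 (50%) were above 2 and 1 was below 0.5. Over all members with a ratio 35.5% were above 2 and 6.45% below 0.5, against 14.3% and 22.6% of all genes. The difference between host classes was not tested.

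Members shared a host in 3 cases. Snhg12, a lncRNA, hosts Snora16a, Snora44 and Snora61. In Sham Snora44 had 10.9 IgG and 14 anti-EZH2 reads (0.971, 0.408 to 2.35) and Snora61 a ratio of 4.83, while at AngII 4 h they stood at 2.54 (1.08 to 6.91) and 1.26 (0.410 to 4.91), with overlapping intervals in both groups. Snhg3 hosts Snora73a and Snora73b, whose ratios were within 1.5-fold of each other in every heart group (0.692 and 0.651, 0.734 and 0.795, 0.379 and 0.318). The pair is 96.6% identical, so that reads could be divided between its members and these ratios are not independent. Kansl2 hosts Snora34 and Snora2b, and Snora2b had at most 3 reads in a library. Host transcripts were low in some cases where the snoRNA was abundant. Snhg3 itself was under 0.001 FPKM in both Sham libraries and at most 2.20 FPKM elsewhere, and Snhg9 at 0 in 5 of the 6 libraries, while their snoRNAs were among the 4 most abundant members. Snora73a overlaps an exon of Snhg3, where reads could be assigned to either row, whereas Snora73b and Snora78 overlap no exon of their hosts. The part of this assignment in the low host values was not tested.

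Ratios of hosts were less spread than those of members, ranging from 0.175 to 2.30 in Sham, from 0.577 to 2.64 at AngII 4 h, and from 0.290 to 1.47 in AngII 24 h hearts. Over 24 pairs in Sham the median ratio was 1.21 for members and 0.758 for hosts, and 16 members were above their host. The medians at AngII 4 h were 1.11 and 0.943, with 13 of 24 members above, and at AngII 24 h 0.402 and 0.640, with 6 of 20 above. Spearman's rho between member and host ratio across these pairs was -0.49, -0.42 and -0.12, a description over snoRNAs that share libraries and, for some, a host. Where a member overlaps an exon of its host, reads could also be assigned to either row. Rpl32, host of Snora7a, was at ratios of 0.783, 0.577 and 0.767, and Rps12, host of Snora33, at 0.599, 0.809 and 0.655, so that neither showed the values of its snoRNA.

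**Figure D5:**
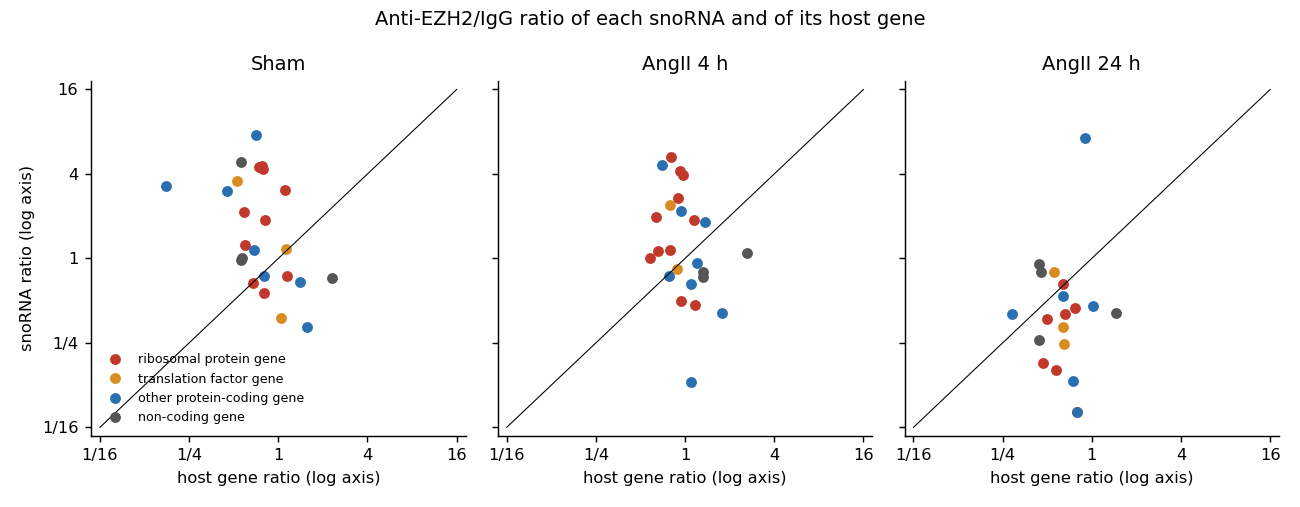
Anti-EZH2/IgG ratio of each snoRNA (vertical, log axis) against that of its host gene (horizontal, log axis) in the 3 heart groups, coloured by the class of host, with the line of equal ratios. Points spread further along the vertical axis than along the horizontal one, and at AngII 24 h 6 of 20 lie above the line.

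Some members shared their place with another row of the tables, and their reads were divided between the rows. Snora16a had 2.98 reads in Sham IgG and under 0.5 elsewhere, while an overlapping row named snopsi28S-3327, annotated as Snora16a as well, had 2.02 reads with IgG and 27.9 with anti-EZH2 in Sham. Both rows together had 5 IgG and 28 anti-EZH2 reads in Sham (ratio 4.25, 1.62 to 14.1), 1 and 17 at AngII 4 h (11.2, 1.75 to 468) and 3 and 0 at AngII 24 h. Snora43 had 6.97 reads in Sham IgG and under 0.5 in every other library, whereas the overlapping row named Snhg7 held 10 in Sham anti-EZH2. Together they had 7 and 10 reads in Sham (1.09, 0.373 to 3.36), so that the contrast in the single rows was not seen in their sum. Snora81 with its overlapping row AC154540.1 had 82 and 141 reads in Sham (1.31, 0.988 to 1.74), 86 and 109 at AngII 4 h (0.834, 0.623 to 1.12) and 134 and 40 at AngII 24 h (0.238, 0.163 to 0.341).

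Across members, the ratio had a Spearman's rho with length of -0.30, -0.45 and -0.07 in Sham, AngII 4 h and AngII 24 h, and with GC content of 0.04, 0.08 and -0.44 (31, 31 and 27 members in the same pairs of libraries). Members with 2 predicted hairpin loops had median ratios of 1.15, 1.48 and 0.402, and the others 0.720, 1.08 and 0.320. The proteins of the H/ACA particle were weakly measured. Dkc1, the pseudouridine synthase, was at 1.79, 0.940 and 1.24 FPKM with IgG and at 1.09, 1.89 and 0.7998 FPKM with anti-EZH2, and the proteins had median ratios of 0.569, 0.723 and 0.644 (3, 4 and 3 with a ratio), with 0 above 2 in Sham and at AngII 24 h and only Dkc1 (2.01) at AngII 4 h. Gar1 had no ratio in Sham and at AngII 24 h, where it was at 4.54 and 2.50 FPKM with IgG and at 0 with anti-EZH2. The 5 assembly factors (Naf1, Shq1, Ruvbl1, Ruvbl2 and Nufip1) were at most 1.84 FPKM. The 4 proteins of the C/D particle found in the tables had medians of 1.10, 1.83 and 1.42, and the 10 genes of RNA polymerase I and its factors 0.730, 0.658 and 0.997. The PRC2 genes Ezh2, Eed and Suz12 had medians of 0.234, 0.624 and 0.319, from at most 4.81 FPKM. Each was below the family's median in the same heart group (1.14, 1.13 and 0.379).

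Small RNAs related to the family also had low ratios at AngII 24 h. ScaRNAs guide modification of spliceosomal RNAs in Cajal bodies, and some of them carry H/ACA boxes. The 9 whose names start with Scarna had median ratios of 0.605, 0.906 and 0.352 (8, 8 and 7 with a ratio). Of the 7 at AngII 24 h, 6 were below 0.5. Rows named SCARNA4, in capitals, were not among these 9 and had ratios of 1.36 and 1.90 in Sham. Scarna10 was at 1472, 1574 and 2207 FPKM with IgG and at 1070, 1283 and 751.8 FPKM with anti-EZH2. Scarna17 stood apart, at 243.4, 802.1 and 0 FPKM with IgG and at 988.9, 528.0 and 1102 FPKM with anti-EZH2. Terc, the telomerase RNA, which carries an H/ACA domain, was at 1.19 FPKM or less in every library.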

How the data were processed

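RIP-seq was done with 6 libraries, 1 for each of the 3 heart groups and 2 antibodies (anti-EZH2 and IgG). The authors prepared stranded libraries, and TopHat2 and mm10 are named in the submitters' processing notes. The deposited values were FPKM per gene, and the program that computed them is not given in the sources used here. The separate tables of the libraries (46072 genes after leaving out 93 lines with a repeated ID) were used, and a table of the whole series served as an alternative. The tables' own FPKM intervals left out the FPKM itself in 132 of 194 member values.

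Members were the genes named Snora followed by a digit and annotated as snoRNA in GENCODE M21 (GRCm38). The members and lists were chosen with earlier results of these data known. Members were named where they were above 0 in all 6 libraries, among the 5 highest in mean FPKM, among the 3 highest or 3 lowest ratios of a heart group, named in the study, or sharing a host with another member. Snora19, Snora35, Snora36b and Snora43, and the scaRNAs and hosts singled out, were chosen after their values were seen.

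Reads were recovered as FPKM times effective length divided by the value of a single read, with fragments taken as normal with mean 200 nt and SD 80 nt. Values worth under 0.5 reads were taken as 0. With 1 library per group, levels and ratios were compared with exact 95% Clopper-Pearson intervals, which cover counting error only, and without p-values. Calls were ratios above 2.0 or below 0.5 with more than 1.0 FPKM in the higher library. Hosts were genes spanning a member on its strand, and 1 host is not reported here by name. Alternatives covered the table used, a pseudocount of 1.0, filters, scaling by protein-coding genes, stricter ratios and the choice of members. Analyses used blastn 2.17.0 (copies of members), RNAfold 2.7.2 (folding), Biopython 1.88, scipy 1.17.1, pandas 2.3.3 and numpy 2.4.6 under Python 3.11.15, and the counting was tested on simulated data.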

Additional observations from a re-analysis of the deposited data

Results flagged for a closer look

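Snora70, in the gene of ribosomal protein Rpl10, was singled out because its ratio lay on opposite sides of 1 at the later times, each time with an interval that left out 1. At AngII 4 h it had 3 IgG and 18 anti-EZH2 reads, a ratio of 3.95 (1.15 to 20.9), and at AngII 24 h 18 and 4 reads, a ratio of 0.179 (0.0436 to 0.538). In Sham it had 18 and 16 reads (0.670, 0.322 to 1.40). The difference between the heart groups was not tested, and each side of it was 1 library. Rpl10 itself was at ratios of 0.677, 0.962 and 0.468 in Sham, AngII 4 h and AngII 24 h.

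Of 7 overlapping genes that do not carry a Snora name, 4 were at 0 reads in every library and the others held more anti-EZH2 than IgG reads in Sham. The row named snopsi28S-3327, at Snora16a, had 28 anti-EZH2 reads in Sham (ratio 10.4, 2.68 to 92.1) and 17 at AngII 4 h (11.5, 1.75 to 467.7). The row named Snhg7, at Snora43, had 10 anti-EZH2 reads in Sham beside 0 with IgG, and AC154540.1, at Snora81, had 15 beside 0. At AngII 4 h the Snhg7 row had 6 anti-EZH2 and 7 IgG reads and AC154540.1 had 2 and 2, and at AngII 24 h snopsi28S-3327 had 0 and 3. For Snora43 and Snora81 the reads of both rows together gave ratios of 1.09 and 1.31 in Sham, with intervals that included 1.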

How the results depend on the processing

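No paired analysis within a heart group was possible because each heart group and antibody had 1 library, so that a ratio rests on both of its libraries; the 3 heart groups were not taken as replicate pairs of the antibodies. Of 162 alternatives for the summaries, 127 stayed within 1.5-fold and on the same side of 1, 24 moved further and 11 crossed 1. Of 195 for named members, 186 stayed inside the counting interval of the ratio and 9 fell outside it, and 0 crossed 1 where that interval had left out 1. Others did cross, as Snora17 at AngII 4 h (1.97 to 0.952, table of the whole series) and Snora44 at AngII 24 h (0.920 to 1.37, scaled), and Snora30 at AngII 24 h moved to 0.357 with that table. The AngII 24 h median ratio was between 0.371 and 0.563 and its summed FPKM ratio between 0.335 and 0.506 over all alternatives.

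The ratio of summed FPKM crossed 1 in Sham from 0.950 to 1.18 with the table of the whole series, 1.19 scaled by protein-coding genes and 1.04 without the highest member. At AngII 4 h it crossed 1 from 0.912 to 1.17 with that table and 1.005 when scaled. Counts in Sham (main 11 above 2, 2 below 0.5) became 6 above with the table of the whole series, 6 below with a pseudocount, 1 below for members above 0 in all 6 libraries, 6 above 4.0, 0 below 0.25, and 1 above and 0 below where the tables' own intervals had to be apart. At AngII 4 h (9 and 4) they became 1 below with the table of the whole series, 2 below when scaled, 3 above 4.0, 1 below 0.25, and 0 and 0 with intervals apart. At AngII 24 h (1 and 19) they became 9 below with the table of the whole series, 12 below when scaled, 8 below 0.25, 5 above with a pseudocount, and 0 above and 7 below with intervals apart.

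Some alternatives were chosen after seeing the data. Counting any FPKM above 0 gave a Sham median of 0.971, with 6 below 0.5. Without Snora73a and Snora73b the ratio of sums was 1.13 in Sham and 1.08 at AngII 4 h, and with overlapping genes added it was 1.01 in Sham. Among members with no near-identical copy, Sham had 7 above 2, 1 below 0.5 and a ratio of sums of 1.17, AngII 4 h had a median of 0.978 and 4 above 2, and AngII 24 h had 7 below 0.5. The cause of these shifts was not tested, beyond the smaller number of members in some. In depth, 17 members had under 10 reads in every library, so that most single ratios could not be placed on either side of 1.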

Other observations

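Levels within the family also differed between the IgG libraries, without any immunoprecipitation of EZH2. Snora26, in Dancr, was at 800.5, 116.0 and 207.4 FPKM with IgG in Sham, AngII 4 h and AngII 24 h hearts (16.9, 2.98 and 3.91 reads) and at 576.8, 125.9 and 85.1 FPKM with anti-EZH2, so that it was highest in Sham with either antibody. Snora31, in Tpt1, was at 472.0, 89.7 and 245.1 FPKM with IgG (13, 3 and 6 reads), while Tpt1 itself was at 279.7, 247.4 and 259.3 FPKM. Snora70 had 18, 3 and 18 IgG reads, beside 35.8, 32.0 and 37.2 FPKM of its host Rpl10. Snora7a ran the other way, at 194.0, 342.4 and 562.1 FPKM with IgG (7, 15 and 18 reads), while its host Rpl32 was at 69.7, 88.0 and 63.3 FPKM. These levels come from 1 library each.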
